A study of Musa acuminata AAA Group with 12 samples.

Results

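Ripening of uncoated Cavendish banana pulp was followed by comparing fruit on day 7 with fruit on day 1. The comparison takes 6 of the 12 libraries of the study, 3 from uncoated pulp on day 7 (7K_a, 7K_b and 7K_c) and 3 from uncoated pulp on day 1 (1K_a, 1K_b and 1K_c). The other 6 libraries came from pulp of fruit coated with 1.25% chitosan, an edible polysaccharide film, on day 7 (7A) and day 1 (1A). All fruit belonged to Musa acuminata (AAA Group, Subgroup Cavendish), and the banana fingers had been treated with ethylene. The methods of the study do not state from which event the days count. A gene was included when its FPKM was at least 1 in at least 3 of the 6 uncoated libraries, which left 18257 of the 35273 listed rows. FPKM counts the sequenced fragments of a gene per kilobase of its transcript and per unit of library depth. The genes are known here only by their locus identifiers, since the deposited tables give no product names and none of the identifiers matched the gene table at hand, so no role is given for any of them.

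In climacteric fruits such as banana, a peak of respiration accompanies the onset of ripening, and ethylene made by the fruit stimulates its own synthesis. In the pulp, starch is broken down to sugars while enzymes of the cell wall loosen the tissue and volatile compounds of the aroma are made. Much of this is controlled at the level of transcription. In bulk pulp, a lower transcript level per cell and a smaller share of the cells that carry the transcript cannot be told apart.

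The fragments implied by the confidence bounds of the deposited FPKM summed to between 11616358 and 16553611 in the 7K libraries and between 11455312 and 12982982 in the 1K libraries. Day was the larger difference among the 6 libraries. On the first principal component of log2(FPKM + 1), which held 71.6% of the variance, the 7K libraries scored from 66.8 to 88.6 and the 1K libraries from -85.5 to -78.2. The second component held 23.5% and set apart replicate c of both days, with scores of 71.5 in 7K_c and 58.9 in 1K_c against scores below 0 in the other 4 libraries. The read statistics of the study list a lower GC percentage for these 2 libraries. The spread between replicates followed the same division. The median absolute log2 difference over the tested genes was 0.21 between 7K_a and 7K_b and 0.13 between 1K_a and 1K_b, and it was 0.44 to 0.54 between replicate c and another replicate of the same day. Between a day 7 and a day 1 library it was 0.66 to 1.00, so even the closest pair of days lay further apart than the most distant pair of replicates. At least a 2-fold difference was seen in 31.4% to 49.8% of the genes between the days. Within a day it was seen in 1.58% between 7K_a and 7K_b, in 0.86% between 1K_a and 1K_b, and in 14.02% to 22.5% for the pairs with replicate c.

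Between day 7 and day 1, 8630 of the 18257 genes (47.3%) differed at an adjusted p-value under 0.05 from limma, of which 5842 (32.0%) were higher and 2788 (15.3%) were lower on day 7. In 55.4% of the genes the 3 values of day 7 were all on one side of the 3 values of day 1, above them in 37.7% and below them in 17.7%. These shares include 1015 genes that passed the inclusion limit only through the 3 day 7 libraries. They also include 463 that passed only through the 3 day 1 libraries. The limit itself fixes the separation of these genes. Within replicates a and b alone and within replicate c alone, 8628 of the 8630 genes moved in the direction of the call, which the calls themselves largely fix since they rest on the same libraries. Over all 18257 tested genes, called or not, the direction was the same in both subsets for 91.9%. The same-numbered libraries of the 2 days deviated together from their group means, and the best partner of each 7K library was the 1K library of its number. Replicate c stood apart on both days, which by itself makes a and b of either day deviate alike. The correlations of a and b therefore do not establish separate pairs. A fit of the 6 libraries with the replicate number as a block, added once the data had been seen, called 13713 genes, 9430 higher and 4283 lower, and 8629 of the 8630 genes were among them in the same direction. The p-values measure the spread between the 3 biological replicates of each of the 4 groups in the fit, the coated ones included. Among these is 7A_c, with 6136363 implied fragments the lowest of the 12 libraries, below 11078141 in 1A_c, the next lowest. A fit of the 6 uncoated libraries alone called 8377 genes.

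The balance of higher and lower genes depended on the scaling between libraries. The median log2 fold change of the tested genes was 0.37 with FPKM as deposited and 0.02 after median-of-ratios scaling, which sets the typical gene to no change. With that scaling 8052 genes were called, 3946 (21.6%) higher and 4106 (22.5%) lower. All 3946 had also been called higher with FPKM as deposited, and 2787 of the 2788 genes called lower stayed lower. A gene was called in opposite directions by the 2 scalings in 0 cases. The remaining 1896 higher calls are therefore rises relative to the FPKM of the library, but were not called relative to the typical gene.

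Most changes were modest. With FPKM as deposited, the middle 50% of the tested genes had log2 fold changes between -0.28 and 0.94, and 5% lay above 1.95 and 5% below -1.70. Of the called genes, 3695 (20.2% of the tested genes) were at least 2-fold higher and 1863 (10.2%) at least 2-fold lower on day 7. At least a 4-fold difference was reached by 840 higher and 650 lower genes, an 8-fold difference by 262 and 201, and a 16-fold difference by 98 and 54. Changes of 64-fold or more were seen in 19 genes, 15 higher and 4 lower. With median-of-ratios scaling the 2-fold changes were 2120 (11.6%) higher and 2708 (14.8%) lower and the 16-fold changes 73 higher and 95 lower, so at these sizes the majority turned with the scaling. At 64-fold or more it did not turn, with 13 higher and 6 lower. The values are on the scale of log2(FPKM + 1), which understates the change of genes with a low FPKM.

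**Figure D1:**
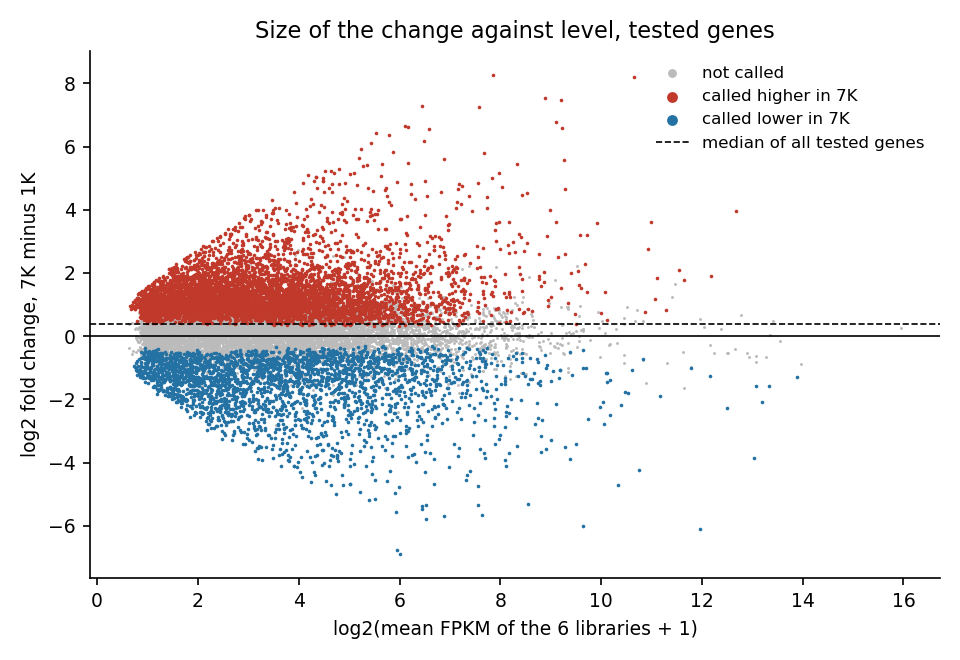
Each point is 1 of the 18257 tested genes, with log2(mean FPKM + 1) over the 6 uncoated libraries on the horizontal axis and its log2 fold change (7K minus 1K) on the vertical axis. Genes called higher (5842) and lower (2788) are coloured, and the dashed line is the median of all tested genes at 0.37, above the solid line at 0.

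The direction of the changes was related to the level of the gene. Among the 2584 genes with a mean FPKM under 2 over the 6 libraries, 33.1% were called higher and 14.3% lower on day 7. Among the 5922 genes with a mean of 10 to under 50 the shares were 32.3% and 15.7%. Among the 867 genes with a mean of 100 to under 500 they were 25.4% and 24.2%, and among the 163 genes with a mean of 500 or more they were 22.7% and 25.8%. The median log2 fold change was 0.33 in the lowest of these classes and -0.14 in the highest. With median-of-ratios scaling the shares were 25.5% higher and 18.9% lower in the lowest class, against 16.6% and 32.5% in the highest. Under both scalings the share of higher calls was smaller, and that of lower calls larger, among the most abundant genes than among the least abundant ones. Genes could pass the inclusion limit through 1 day alone, as 1015 did through day 7 and 463 through day 1. The limit fixes the direction of these genes, and their number in each class of level was not counted. Genes are not independent replicates, and the relation of direction to level is given only as a description.

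Locus span was also related to the share of called genes. Loci of 1000 to under 2000 bp had the largest share of calls of the 6 span classes, with 37.5% higher and 21.2% lower of 2078 genes. Of the 2737 loci that span 10000 bp or more, 25.6% were higher and 8.59% lower. The 391 loci under 500 bp had the fewest calls in total, 17.4% higher and 8.70% lower, although their median absolute log2 fold change of 0.82 was above the 0.60 of the longest loci. After median-of-ratios scaling, 18.1% of the longest loci were higher and 17.0% lower. Under 500 bp the shares became 11.8% and 10.5%, and at 1000 to under 2000 bp 28.7% and 26.3%. Higher calls thus outnumbered lower ones by less in these 3 classes than with FPKM as deposited. The span includes introns, so it is not the transcript length that FPKM is based on.

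The number of genes in each abundance class was counted in every library over all listed genes. The class of FPKM 10 to under 100 held 7843, 7658 and 6506 genes in 7K_a, 7K_b and 7K_c, against 6401, 6386 and 5585 genes in 1K_a, 1K_b and 1K_c. The libraries of the 2 days did not overlap in this class, and day 7 averaged 7336 ± 724 genes against 6124 ± 467 on day 1 (SD, n = 3 each). The two-sided exact permutation test gave p = 0.1, which is the smallest that 3 libraries against 3 can reach (adjusted over the 6 classes, p = 0.6). After median-of-ratios scaling the mean difference between the days was only 47.3 genes, in place of 1212. With FPKM scaled to a common sum it was 1239 genes, but the days were no longer separate (p = 0.3 in the same exact test). Genes at an FPKM of 0 numbered 9224, 9449 and 10342 in the 7K libraries, against 10429, 10269 and 10953 in the 1K libraries, where 7K_c overlapped with day 1 (two-sided exact permutation test, p = 0.2). Within pairs a, b and c the differences between day 7 and day 1 were -1205, -820 and -611 genes (p = 0.25 in the exact paired test, the smallest for 3 pairs). In both of these classes replicate c stood apart from a and b on the same side on each day. The counts at 0 were not adjusted for depth. The implied fragments were 16553611 in 7K_a against 11455312 in 1K_a, the pair with the largest difference. In pair b they were 11616358 in 7K and 12982982 in 1K, and in pair c 12476525 in 7K and 12495027 in 1K. The part of depth in these counts was not tested.

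The classes at the top of the range held similar numbers on the 2 days with FPKM as deposited. An FPKM of 1000 or more was reached by 70, 76 and 98 genes in the 7K libraries and by 78, 75 and 87 genes in the 1K libraries (two-sided exact permutation test, p = 0.9). An FPKM of 100 to under 1000 was reached by 829, 906 and 1099 genes in the 7K libraries and by 838, 823 and 1006 in the 1K libraries (p = 0.6 in the same exact test). With median-of-ratios scaling the mean differences between day 7 and day 1 were -23.7 genes at 1000 or more and -224 genes at 100 to under 1000, so both turned in sign (p = 0.3 for each in the same exact test). The genes in the highest class were partly exchanged. By the mean of the group, 85 genes were at 1000 or more on day 7 and 78 on day 1, and 55 of them were in this class on both days. Of the 30 genes that were there only on day 7, 23 had a mean of 100 to under 1000 on day 1, 4 had 10 to under 100 and 3 had 1 to under 10. Of the 23 that were there only on day 1, 20 had a mean of 100 to under 1000 on day 7 and 3 had 10 to under 100.

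**Figure D2:**
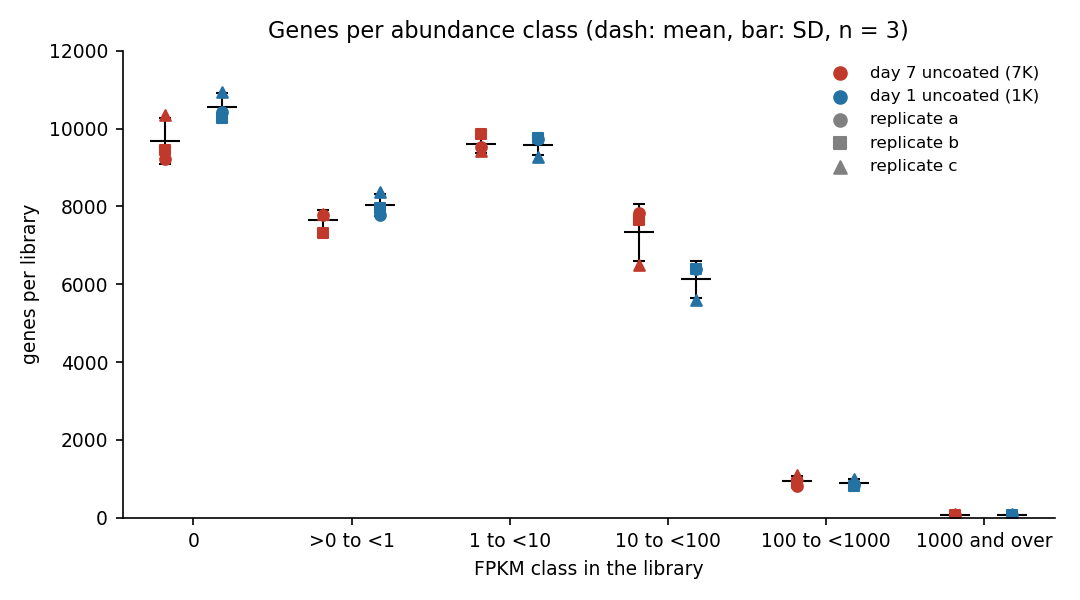
The number of genes in each FPKM class (horizontal axis) is plotted for every uncoated library, with the 7K libraries in red at the left and the 1K libraries in blue at the right of each class, and with a symbol for each replicate. The dash is the mean and the bar the SD (n = 3), and the class of 10 to under 100 is where the 2 days do not overlap with FPKM as deposited.

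Of the 18257 tested genes, 12009 (65.8%) kept their class between the group means. A rise by 1 class on day 7 was seen in 4040 genes and a drop by 1 class in 1958. Moves over 2 or more classes were rare, with 167 genes up and 83 down. These moves were counted with FPKM as deposited, where the median log2 fold change of the tested genes was 0.37. They were not counted after median-of-ratios scaling, so their balance of up and down may depend on the scaling. For single libraries, 34.2% to 44.5% of the tested genes were in another class between a day 7 and a day 1 library, against 8.53% to 24.4% between replicates of a day. The inclusion limit cut through the lowest classes. A total of 1015 genes were at an FPKM of at least 1 in all 3 day 7 libraries and in 0 of the day 1 libraries, and 463 the other way round. These genes passed the limit only through the day on which they were high. The gene just inside the limit had 1.76, 1.06 and 0.72 in 7K and 0.92, 1.00 and 0.60 in 1K, and the gene just outside it had 0.89, 1.01 and 0.36 in 7K and 1.00, 1.58 and 0.52 in 1K.

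Below the single highest gene, expression was spread over more genes on day 7. The 100 genes with the highest FPKM held 40.0%, 42.8% and 47.6% of the FPKM sum in 7K_a, 7K_b and 7K_c, against 48.4%, 49.6% and 53.3% in 1K_a, 1K_b and 1K_c. The groups did not overlap, and the mean difference was -6.96 percentage points (two-sided exact permutation test, p = 0.1, the smallest possible). The number of genes that made up 50% of the FPKM sum was 277, 215 and 127 in the 7K libraries and 118, 105 and 70 in the 1K libraries (p = 0.1, exact permutation, two-sided). The 10 highest genes held 16.2% to 24.8% in 7K and 20.1% to 27.9% in 1K, ranges that overlapped (p = 0.4 in the same exact test). The single highest gene went the other way, with 4.58%, 7.09% and 12.4% in 7K and 4.22%, 5.58% and 9.34% in 1K (p = 0.6 in the same exact test). The 500 highest genes held 56.4% to 64.6% in 7K and 64.2% to 69.4% in 1K, where 7K_c lay above 1K_a (p = 0.2 in the same exact test). Adjusted over the 5 measures of this kind, the p-value of the 100 highest genes was 0.25. Between libraries of the same letter the differences had 1 sign in all 3 pairs. They were -3.93, -3.22 and -3.08 percentage points for the 10 highest genes, -8.39, -6.83 and -5.65 for the 100 highest, -7.78, -6.21 and -4.74 for the 500 highest, and 0.36, 1.51 and 3.09 for the single highest gene, in pairs a, b and c. The exact paired test of 3 differences cannot go below p = 0.25, which each of these reached. Within each day, replicate c was the most concentrated library. These shares are relative to the sum of the library and do not change with the scaling.

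**Figure D3:**
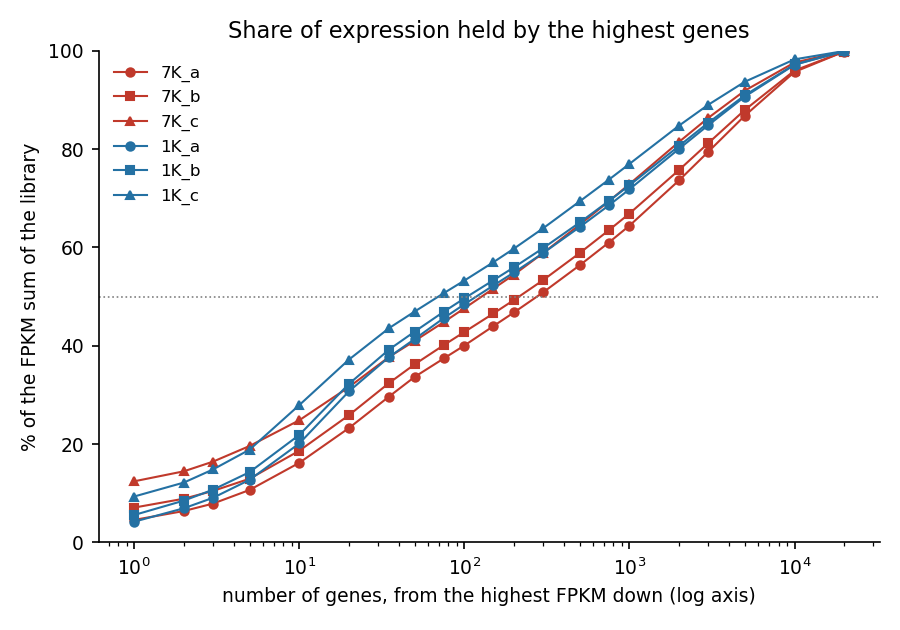
The cumulative percentage of the FPKM sum is drawn against the number of genes, from the highest FPKM down, on a log axis with 7K libraries in red and 1K libraries in blue. At 100 genes the 7K lines lie at 40.0% to 47.6% and the 1K lines at 48.4% to 53.3%, and the dotted line marks 50%.

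Gains and losses of FPKM were unequally distributed over the genes. Between the group means, 18739 of all listed genes were higher on day 7 by a summed FPKM of 264594, and 10209 genes were lower by a summed 275935. It took the 143 genes with the largest gains to make up 50% of the summed gain, but only the 33 genes with the largest losses to make up 50% of the summed loss. The 10 largest gains were 20.8% of the summed gain and the 10 largest losses 32.6% of the summed loss. With each library scaled to a common sum, 149 and 33 genes were needed. These sums take all genes, called or not, and were not repeated with median-of-ratios scaling. The largest gain, 14470 FPKM or 5.47% of the summed gain, was that of Ma03_g16510, which was not called (limma adjusted p = 0.77). The largest loss, 14311 FPKM or 5.19% of the summed loss, was that of Ma06_g29580, which was called lower.

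The largest rise in mean FPKM among called genes without overlap was that of Ma06_g18530 (chromosome 6, 12670939 to 12672146). It had 11284, 12837 and 12912 FPKM in 7K_a, 7K_b and 7K_c, against 838, 756 and 790 FPKM in 1K_a, 1K_b and 1K_c. The replicates of each day were close and the days were far apart, with means of 12344 ± 919 and 795 ± 41.5 FPKM on day 7 and day 1 (SD, n = 3 each). On the log2(FPKM + 1) scale this was a change of 3.95 (SE 0.18, limma adjusted p = 1.53e-07), and the gene moved to rank 3 of all genes on day 7, against rank 96 on day 1. In the coated fruit it had 9254, 9359 and 10106 FPKM on day 7 and 686, 726 and 628 FPKM on day 1.

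Ma01_g17320 (chromosome 1, 12687734 to 12704212) had the next largest rise. It had 7549, 8929 and 5713 FPKM in the 7K libraries, against 2259, 1843 and 1734 FPKM in the 1K libraries. On the log2(FPKM + 1) scale this was a change of 1.91 (SE 0.23, limma adjusted p = 7.25e-05), and its rank was 10 on day 7 and 44 on day 1. In coated fruit it had 8309, 8888 and 6644 FPKM on day 7 and 777, 769 and 772 FPKM on day 1, so the day 1 level of the coated fruit was below that of all 3 uncoated libraries. The change over the days was larger in coated than in uncoated fruit by 1.44 on the log2 scale, a difference that missed the threshold (adjusted p = 0.051 for the interaction from limma). Of 16 alternatives it passed in 5 and did not pass in 11, with limma adjusted p between 0.00030 and 0.16.

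The largest fall was that of Ma06_g29580 (chromosome 6, 30915852 to 30917007). It had 643, 932 and 1957 FPKM in 7K_a, 7K_b and 7K_c, against 12912, 14497 and 19056 FPKM in 1K_a, 1K_b and 1K_c. Replicate c was the highest on both days, and the highest day 7 library was still far below the lowest day 1 library. On the log2(FPKM + 1) scale this was a change of -3.86 (SE 0.44, limma adjusted p = 5.29e-05), and the gene ranked 70 on day 7 and 4 on day 1. In coated fruit it had 1380, 1207 and 2697 FPKM on day 7 and 14187, 15606 and 9473 FPKM on day 1.

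Ma10_g00760 (chromosome 10, 2407092 to 2409042) fell to 8601, 9244 and 8541 FPKM in the 7K libraries, against 21575, 23591 and 19927 FPKM in the 1K libraries. On the log2(FPKM + 1) scale this was a change of -1.30 (SE 0.27, limma adjusted p = 0.0023). It was the second most abundant gene on day 1 and ranked 7 on day 7, so a fall of this size left it among the highest genes. The call was lost without a filter on low FPKM (adjusted p = 0.085). In coated fruit the gene had 8577, 8051 and 6071 FPKM on day 7 and 18682, 20574 and 20804 FPKM on day 1.

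The gene with the highest mean FPKM on both days was Ma03_g16510 (chromosome 3, 19115091 to 19115967). It had 34277, 57677 and 120140 FPKM in 7K_a, 7K_b and 7K_c and 33253, 44896 and 90534 FPKM in 1K_a, 1K_b and 1K_c. The spread between replicates was larger than the difference between the days, and the log2 fold change of 0.27 had a 95% confidence interval of -1.20 to 1.75 (adjusted p = 0.77 from limma). The order of the replicates was the same on both days, with c the highest and a the lowest. Its sign turned with median-of-ratios scaling (-0.16).

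The genes with the highest mean FPKM were partly replaced over the days. The lists of the 100 highest genes of day 7 and of day 1 shared 61 genes, which is 61.0% of each list. For single libraries, 71, 76 and 89 of 100 genes were shared between the pairs of 7K libraries and 78, 80 and 95 between the pairs of 1K libraries, against 55 to 63 genes for the 9 pairs of a day 7 and a day 1 library. The highest overlap between the days thus lay below the lowest overlap within a day. Among the 500 highest genes the lists shared 309, with 271 to 337 between the days and 362 to 477 within a day. Among the 10 highest genes, 5 were shared by the group means, and the 3 to 7 shared between single libraries of the 2 days overlapped with the 5 to 9 shared within a day.

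The 39 genes in the day 7 list alone had a median rank of 300 on day 1, between 102 and 11347. For 15 of them the day 1 rank was over 500, for 10 over 1000 and for 5 over 5000. The 39 genes in the day 1 list alone had a median rank of 228 on day 7, between 102 and 3104, with 11 over 500 and 7 over 1000. The genes that entered the list thus included some from much further down than any gene that left it had reached. The lists were made from the same values as the calls, so the calls only describe them. Of the 39 genes that entered, 28 were called higher, and of the 39 that left, 32 were called lower, while 41 of the 61 shared genes were not called, 9 were higher and 11 were lower, beside 32.0% higher and 15.3% lower of all tested genes. With median-of-ratios scaling 23 of the entering genes were higher, 33 of the leaving genes were lower, and 5 of the shared genes were higher and 15 lower.

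The 61 shared genes held 33.7%, 36.4% and 40.9% of the FPKM sum in the 7K libraries and 41.3%, 42.5% and 45.9% in the 1K libraries. The 39 genes of the day 7 list alone held 5.98%, 6.14% and 5.92% in 7K and 1.43%, 1.36% and 1.57% in 1K. The 39 genes of the day 1 list alone held 1.68%, 1.68% and 1.98% in 7K and 6.79%, 6.92% and 6.75% in 1K. The exchanged genes thus carried similar shares on the day of their list, and the smaller share of the top 100 on day 7 lay in the genes that the lists had in common.

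**Figure D4:**
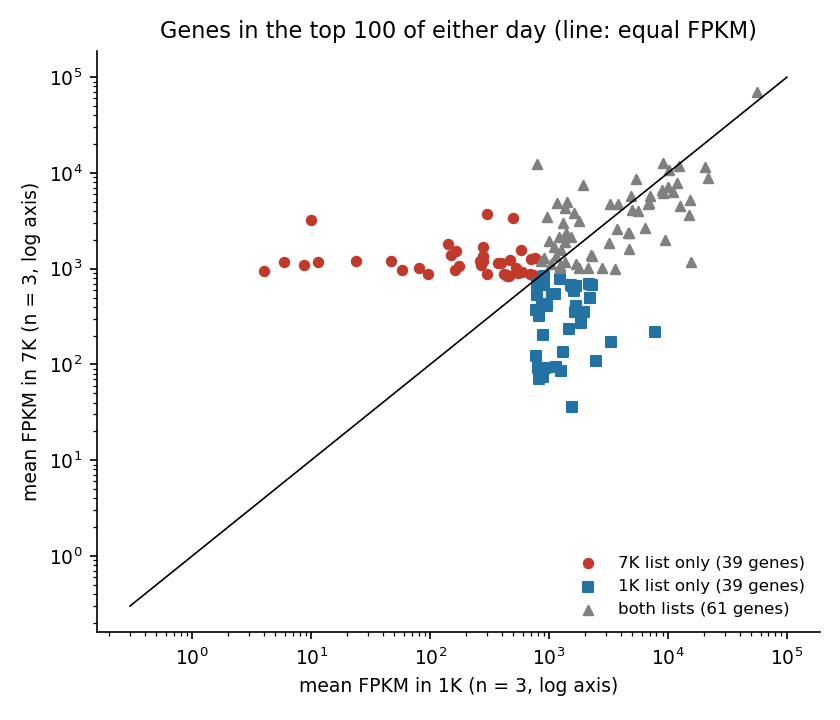
Mean FPKM on day 7 (vertical log axis) is plotted against mean FPKM on day 1 (horizontal log axis, n = 3 each) for the genes among the 100 highest of either day, with 61 genes in both lists and 39 in each list alone. Genes of the day 7 list alone reach further to the left of the line of equal FPKM than genes of the day 1 list alone reach below it.

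Called genes were found on all 11 chromosomes in similar shares. The share of tested genes called higher ran from 30.0% on chromosome 6 to 33.4% on chromosome 4, and the share called lower ran from 12.6% on chromosome 1 to 17.3% on chromosome 7. The 193 tested genes on unplaced sequence had 30.1% higher and 15.5% lower. The 18037 tested genes placed on the chromosomes were then put in order of their start. After a gene called higher, the next tested gene was also called higher in 34.0% of 5768 cases, against 32.0% among all placed genes. After a gene called lower, the next was called lower in 19.5% of 2751 cases, against 15.3%. The excess over the background was thus 2.05 percentage points for higher and 4.22 for lower calls, and it was 2.37 and 4.09 with median-of-ratios scaling. Across the 18026 pairs of neighbours, the log2 fold changes had a Pearson r of 0.081, given as a description since neighbours share the libraries.

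The r was higher for neighbours at short distances. It was 0.42 over the 172 pairs whose loci overlap, 0.11 over the 3733 pairs less than 1 kb apart and 0.12 over the 5805 pairs 1 to under 5 kb apart. Over the 5529 pairs 5 to under 20 kb apart it was 0.034, and over the 981 pairs 50 kb or more apart it was 0.024. Overlapping loci can share fragments, and whether the counting used the strand is not given in the sources used here.

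Most called genes stood alone or in short runs. Of the stretches of consecutive tested genes called higher, 2503 were a single gene, 874 a pair and 293 had 3 genes, and 51 had at least 5 genes, with 299 genes in all. Of the stretches called lower, 1799 were a single gene and 3 had at least 5 genes. These numbers followed the shares called, since with median-of-ratios scaling there were 9 runs of at least 5 higher genes and 16 of lower genes. The count of 51 also dropped to between 21 and 36 when any library except 7K_c was left out, and it was 61 without 7K_c. The 3 runs of lower genes became 0 without 7K_b or 1K_c, 1 without 7K_a, and 2 without 1K_a or 1K_b.

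The longest run of higher genes had 13 tested genes on chromosome 10 from 36775138 to 36934821, among 15 listed genes. All 13 had no overlap between the days, as did 37.7% of all tested genes in this direction, and the run was picked for its calls. Both the run and that share include genes that passed the inclusion limit only through day 7. Their log2 fold changes lay between 0.71 and 1.72 with a median of 1.21. The genes had low to moderate levels, with mean FPKM between 1.34 and 9.40. Their summed FPKM was 92.0, 91.1 and 97.7 in the 7K libraries, against 32.7, 30.8 and 35.4 in the 1K libraries. No member held more than 14.9% of the day 7 sum, so the difference was shared along the run, and 10 of the 13 were also called higher with median-of-ratios scaling. In 3 places neighbouring loci of the run overlap.

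Other long runs of higher genes lay on chromosome 8. The run from 3093486 to 3166749 had 10 tested genes with log2 fold changes between 0.65 and 4.70. Their summed FPKM was 404, 355 and 365 in the 7K libraries, against 46.9, 43.9 and 57.5 in the 1K libraries. A single member, the third in order, held 47.7% of the day 7 sum, with 209, 154 and 172 FPKM in the 7K libraries, against 7.21, 6.25 and 8.48 FPKM in the 1K libraries. None of its neighbouring loci overlap, and 8 of the 10 genes were called higher with median-of-ratios scaling. The run from 4521733 to 4590967 had 11 tested genes, of which 7 were called higher with that scaling. Its summed FPKM was 246, 276 and 441 in the 7K libraries, against 84.4, 82.5 and 150 in the 1K libraries. A single member, the first in order, held 60.9% of the day 7 sum and was highest in replicate c on both days. It had 129, 147 and 311 FPKM in the 7K libraries, against 46.0, 43.5 and 108 FPKM in the 1K libraries. The seventh member was also highest in replicate c on both days, and the last member was lowest there.

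The longest run of lower genes had 7 tested genes on chromosome 10 from 33561575 to 33592202, among 9 listed genes with no overlapping neighbours, and no run of at least 5 lower genes was left without 7K_b or without 1K_c. Their log2 fold changes lay between -3.56 and -1.03, and the 7 genes were also called lower with median-of-ratios scaling. Summed FPKM was 61.7, 62.1 and 90.2 in the 7K libraries, against 269, 246 and 332 in the 1K libraries. The first member had 8.37, 7.67 and 8.91 FPKM in 7K and 49.4, 54.0 and 63.3 FPKM in 1K. The last had 0.479, 1.104 and 1.276 FPKM in 7K and 20.5, 20.02 and 24.7 FPKM in 1K. These end members and the third, with 24.8, 20.3 and 22.1 FPKM in 7K and 111, 96.2 and 92.0 FPKM in 1K, had the largest changes of the run. Neither bordering gene was called, with a log2 fold change of 1.40 before the run and of -1.47 after it. The other 2 runs of lower genes had 5 tested genes each, both on chromosome 4, from 2278578 to 2356598 and from 36595576 to 36639471. They lay among 17 and 10 listed genes. Their summed FPKM was 14.7 to 17.8 in 7K against 84.1 to 90.3 in 1K for the first of these, and 2.70 to 7.33 in 7K against 57.1 to 66.4 in 1K for the other. Most of the 1K sums came from few members. In the first run the fourth member had 63.8, 60.3 and 54.6 FPKM in 1K. In the other run the first member had 31.7, 29.9 and 31.5 FPKM in 1K, and the second had 19.5, 19.7 and 27.1 FPKM.

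**Figure D5:**
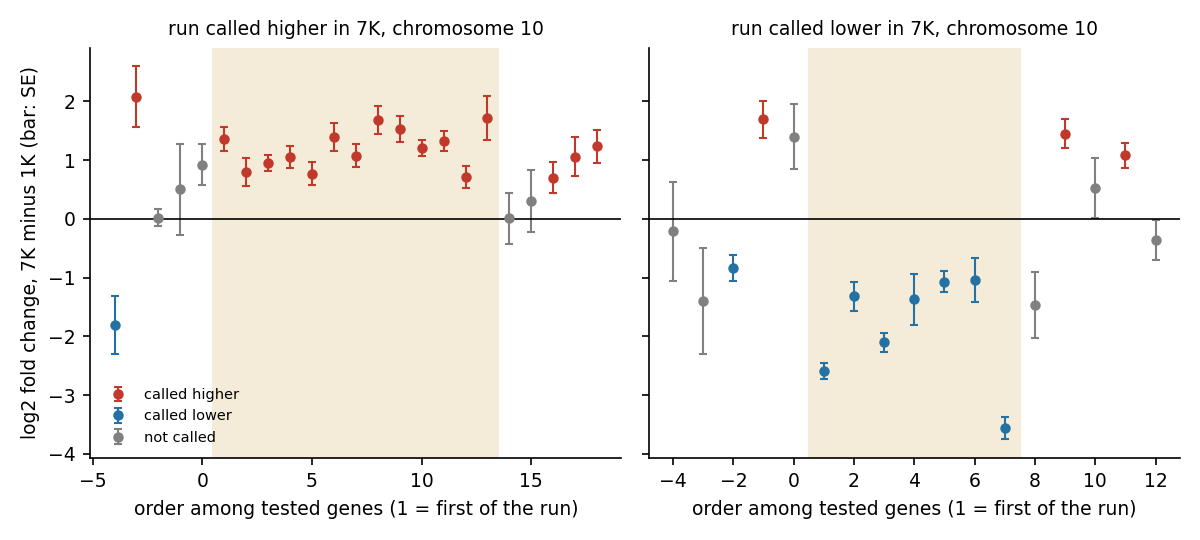
Log2 fold changes (7K minus 1K, bars are the standard error) are plotted by order among the tested genes for the longest run called higher, with 13 genes, and the longest run called lower, with 7 genes, both on chromosome 10 and shaded, with 5 genes on either side. Within the shaded stretches the values lie between 0.71 and 1.72 and between -3.56 and -1.03.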

How the data were processed

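Pulp RNA of 12 libraries was sequenced by the authors on an Illumina platform, and the reads were mapped with TopHat to the DH Pahang version 2 genome and quantified with Cufflinks. The deposited FPKM values of each library, and their 95% bounds were used without further scaling. The 6 uncoated libraries defined the comparison and the 18257 tested genes. The log2(FPKM + 1) values of all 12 libraries entered a single fit in limma 3.58.1 (R 4.3.3) with Benjamini-Hochberg adjustment. The code of the fit was also run on simulated data with independent noise. Those data lack the shift of replicate c, so that run cannot vouch for the calls made here. Implied fragments were derived from the distance of the upper bound to the FPKM, taken as 2 Poisson standard deviations, and cover counting error only. Class counts and shares were tested by exact permutation (two-sided, Python 3.11.15). Same-numbered 7K and 1K libraries correlated in their deviations from the group means with r of 0.668 (a), 0.561 (b) and 0.869 (c), and the labels number the replicates. Coordinates were taken as deposited. A single row without an identifier was left out, and 0 identifiers matched the gene table of another banana assembly, so gene families were not compared. Genes named are the 2 largest rises and 2 largest falls in mean FPKM among called genes without overlap and the highest gene of each day. Runs are those of tested genes with the same call, the longest in each direction and further ones chosen after their values were seen. The members and lists were chosen with earlier results of these data known. Alternatives were other scalings, pseudocount, filters, blocks, voom on implied fragments, 6 libraries only, pairs of the same letter (added after seeing the data), list sizes, definitions of neighbours, and each library left out.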

Additional observations from a re-analysis of the deposited data

How the results depend on the processing

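The number of called genes was 8630 and lay between 7176 and 8622 when 1 uncoated library was left out, with 4773 to 5991 higher and 2401 to 2631 lower, and at least 2-fold changes in 5012 to 6044 genes against 5558. It was 7528 without both c libraries and 8415 with the replicate block over all 12 libraries. In coated fruit of day 1 the study lists a lower GC percentage for replicates a and b than for replicate c. The replicate number therefore does not follow the GC percentage over all 12 libraries. The libraries split by the GC percentage listed in the study as a block gave 13850 (9525 higher, 4325 lower), and the replicate block with the 6 uncoated libraries only gave 13713 (9430 higher, 4283 lower). A mean FPKM of at least 5 left 5495 calls (3633 higher) and 3594 at least 2-fold, because fewer genes were tested. Quantile normalization gave 4423 higher and 4037 lower. No call turned round under any of these fits. The lists of the highest genes shared 50% at 10 genes and 64% at 50 genes, and 61.0% to 62.0% at 100 genes with 1 library left out. The difference in the share of the 100 highest genes lay between -9.02 and -5.24 points without 1 library.

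The mean difference in genes per FPKM class was within replicate error at 1 to under 10 (3.33) and turned to -11.3 with a common sum, to -62 without both c libraries and to between -153 and 94.2 without 1 library. At 1000 and over (1.33) it turned to -2 with a common sum, -23.7 with median-of-ratios scaling, -3.5 without both c libraries and -7 to 7 without 1 library. At 100 to under 1000 (55.7) it turned to -224 with median-of-ratios scaling and lay between -21.5 and 114 without 1 library, and at above 0 to under 1 (-393) it turned to 628 with that scaling.

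The share of next genes called alike moved with the share of all genes called. For higher calls it was 24.0% with median-of-ratios scaling, 27.0% with quantile normalization, 23.1% with calls of at least 2-fold, 20.4% with the next listed gene and 27.7% to 35.04% without 1 library. For lower calls these were 26.6%, 26.1%, 14.3%, 12.4% and 16.9% to 18.9%. The share of all genes called higher was, in the same order, 21.6%, 24.2%, 20.2%, 16.7% and 26.1% to 32.8%. The share of all genes called lower was 22.5%, 22.1%, 10.2%, 7.95% and 13.1% to 14.4%. The excess over these shares was 1.58 to 3.69 percentage points for higher calls and 3.77 to 4.57 for lower calls. Runs of at least 5 higher genes numbered 9, 15, 8, 9 and 21 to 61 under these settings, and runs of lower genes 16, 16, 1, 0 and 0 to 3.

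For Ma01_g17320 the interaction of coating and day was past the threshold at 1.51 with median-of-ratios scaling, 1.85 with quantile normalization, 1.44 with a mean FPKM of at least 5, 1.34 with the GC block and 1.496 with voom, but not in the other 11 of 16 alternatives, among them a common sum (adjusted p = 0.10), the replicate block (0.088), the lower filter (0.15) and each uncoated library left out (0.069 to 0.16), all from limma. It was also past the threshold for Ma06_g29580 at 1.19 with the GC block. The interaction, -0.14 for Ma06_g18530 and -0.12 for Ma10_g00760 in the reported fit and not called in either, turned to 0.010 and 0.17 for Ma06_g18530 and to 0.033 and 0.00071 for Ma10_g00760 with a common sum and with quantile normalization. The change of Ma03_g16510, which was not called, turned to -0.16 with median-of-ratios scaling and lay between -0.21 and 0.70 without 1 library. The cause of these moves was not tested. Except with the GC block, the interactions compare groups of unequal GC make-up, since in 1A the lower GC percentage is that of replicates a and b.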

Other observations

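Loci on mitochondrial sequence stood apart from the chromosomes. The summed FPKM of the 104 listed loci was 653, 741 and 974 in 7K_a, 7K_b and 7K_c, against 370, 299 and 390 in 1K_a, 1K_b and 1K_c. The groups did not overlap, with means of 789 ± 166 on day 7 and 353 ± 47.7 on day 1 (SD, n = 3 each, two-sided exact permutation test, p = 0.1, the smallest possible). Of the 27 tested loci, 15 were called higher and 5 lower, against 32.0% and 15.3% of all tested genes. These loci were singled out after their values were seen.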
